A study of Mus musculus with 6 samples.

Results

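The genes described here are Trip13 and 8 genes of the spindle assembly checkpoint, Mad2l1, Mad1l1, Mad2l1bp, Bub1, Bub1b, Bub3, Ttk and Cdc20. They were chosen by name for their roles in mitosis, and all 9 were found among the 34245 genes with RNA-seq values. Each symbol occurs once in the table. RNA-seq was done on 3 peripheral T-cell lymphomas (PTCL) from lymph nodes of FVB mice of the genotype Dnmt3b+/-, in which 1 allele of the DNA methyltransferase gene Dnmt3b is inactivated in the germline. The mice were terminally sick, and the labels name neither a treatment nor an age. The tumors are independent samples and are numbered as the authors number them, which gives them no order. The labels hold no other RNA-seq group, so tumors were compared with each other, 1 library against 1, and no test between groups was made.

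The spindle assembly checkpoint delays anaphase until every chromosome is attached to the mitotic spindle. At unattached kinetochores, MAD1 and the kinases TTK and BUB1 help to convert MAD2 to its closed form, which joins BUBR1, BUB3 and CDC20 in a complex that inhibits the anaphase-promoting complex (APC/C). The ATPase TRIP13, with its adaptor p31comet, opens MAD2 again and so helps to take the inhibitor apart, and in meiosis it acts on related HORMA-domain proteins of the chromosome axis.

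Expression is given as FPKM, which counts a gene's fragments per length of exon and per depth of the library, so that levels of different genes are compared per length. Tumor 1 was sequenced most deeply, with 30726570 reads behind its FPKM, against 18969988 for tumor 2 and 20770928 for tumor 3. Read numbers were worked out backwards from FPKM, exon length and depth, and 95% intervals on them are exact Poisson intervals that cover counting error only.

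Trip13 (ENSMUSG00000021569), the ATPase that remodels MAD2, lies on the minus strand of mm10 at chr13:73911347-73937784. Its promoter is shown because it holds, 3 bases after the RefSeq start, the letters of a cell cycle genes homology region (CHR), a short element known from promoters of genes that are active in G2 and mitosis. The 30 bases around it, chr13:73937747-73937776 on the minus strand of GRCm38.p6, are printed with the CHR letters in capitals.
Trip13: gcgcgcggcagaTTCGAAgctcggtggggc
Trip13 reached 3.60 FPKM in tumor 1 (95% interval 3.25 to 3.98), against 2.17 FPKM in tumor 2 (1.83 to 2.56) and only 1.37 FPKM in tumor 3 (1.12 to 1.67). Tumor 1 was thus high and tumor 3 low, and the counting intervals of the tumors did not overlap. The ratio of tumor 1 to tumor 3 was 2.62, with a counting interval of 2.10 to 3.30. In tumor 1 Trip13 stood at percentile 77.4 of all genes by FPKM, and in tumor 3 at percentile 71.8. In these bulk samples, fewer dividing cells and less RNA per cell cannot be told apart.

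Among the genes on which TRIP13 acts or with which it works, Mad2l1 encodes MAD2, Mad1l1 its partner at the kinetochore, and Mad2l1bp the adaptor p31comet. Mad2l1 (ENSMUSG00000029910, chr6:66535390-66547220) had 4.54, 2.93 and 3.38 FPKM in tumors 1, 2 and 3, with a mean of 3.62 ± 0.830 (SD, n = 3). Mad1l1 (ENSMUSG00000029554, chr5:140008689-140321552) had 4.11, 2.21 and 2.40 FPKM, with a mean of 2.91 ± 1.05 (SD, n = 3). Both were highest in tumor 1 and lower, at similar levels, in tumors 2 and 3. The ratio of tumor 2 to tumor 3 was 0.868 for Mad2l1 (counting interval 0.767 to 0.982) and 0.920 for Mad1l1 (0.738 to 1.15), so that a difference between tumors 2 and 3 was not detectable for Mad1l1 at this depth. Mad2l1bp (ENSMUSG00000034509, chr17:46147390-46153553) had 10.3, 11.7 and 10.7 FPKM, with a mean of 10.9 ± 0.709 (SD, n = 3). It varied least of the 9 genes, with a coefficient of variation of 6.49%, and its counting intervals overlapped in all pairs of tumors. Its reads, about 404, 283 and 284, are approximate, because the exon length used did not give whole numbers.

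The BUB genes encode the kinase BUB1, the related BUBR1 (Bub1b), which is part of the inhibitor of the APC/C, and BUB3, which binds both of them and brings them to kinetochores. The letters of a CHR occur in the promoter windows of all 3 genes, and these windows are shown for comparison with Trip13, with the CHR letters or their reverse complement in capitals. They lie at chr2:127831828-127831857 on the minus strand for Bub1, at chr2:118598231-118598260 for the CHR letters of Bub1b after the start, at chr2:118598011-118598040 for those before it, and at chr7:131560315-131560344 for Bub3, the last 3 on the plus strand.
Bub1: ctgcgcggggaaTTCGAAtcgccggcggcc
Bub1b, after the start: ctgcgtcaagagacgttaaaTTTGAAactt
Bub1b, before the start: tctctccctgggTTCGAAggcttgtcttag
Bub3: gagccgttggcgTTCAAAatcagccaatga
Bub1 (ENSMUSG00000027379, chr2:127801122-127831865) had 6.83, 3.01 and 1.95 FPKM in tumors 1, 2 and 3, with a mean of 3.93 ± 2.57 (SD, n = 3). Bub1b (ENSMUSG00000040084, chr2:118598211-118641591) had 10.6, 6.79 and 3.74 FPKM, with a mean of 7.05 ± 3.44 (SD, n = 3). Both had their highest value in tumor 1 and their lowest in tumor 3, as Trip13 did. The ratio of tumor 1 to tumor 3 was 3.51 for Bub1 (counting interval 2.98 to 4.15) and 2.84 for Bub1b (2.51 to 3.21). Bub1 had the largest coefficient of variation of the 9 genes, 65.3%, and without tumor 1 its mean was 2.48 FPKM. Bub3 (ENSMUSG00000066979, chr7:131560222-131571895) had 9.09, 7.33 and 7.72 FPKM, with a mean of 8.05 ± 0.926 (SD, n = 3). Its highest tumor was 1.24 times its lowest, so the common partner of BUB1 and BUBR1 varied less than either. Bub3 lies within the span of Fgfr2 on the other strand, which had at most 0.0612 FPKM.

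Ttk encodes the kinase MPS1, which starts checkpoint signaling at the kinetochore, and Cdc20 encodes the activator of the APC/C that the checkpoint holds back. Their windows with CHR letters, at chr9:83834684-83834713 on the plus strand for Ttk and at chr4:118437344-118437373 on the minus strand for Cdc20, are marked in the same way.
Ttk: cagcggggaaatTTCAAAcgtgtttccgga
Cdc20: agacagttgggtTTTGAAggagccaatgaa
Ttk (ENSMUSG00000038379, chr9:83834689-83872389) had 2.92, 1.77 and 0.695 FPKM in tumors 1, 2 and 3, which rest on 442, 165 and 71 reads, and a mean of 1.80 ± 1.11 (SD, n = 3). It had the lowest mean of the 9 genes and the largest ratio of tumor 1 to tumor 3, 4.21, with a counting interval of 3.27 to 5.49. Cdc20 (ENSMUSG00000006398, chr4:118432901-118437352) had 15.2, 13.6 and 7.55 FPKM, with a mean of 12.1 ± 4.04 (SD, n = 3). Its tumors 1 and 2 were close, at a ratio of 1.12 (counting interval 1.00 to 1.26), and tumor 3 was low. The 3' end of Cdc20 shares 53 bases with Elovl1 on the other strand, which had 17.6, 17.8 and 11.4 FPKM, and since the strand used in counting is not given in the sources used here, reads in the shared bases are uncertain.

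**Figure D1:**
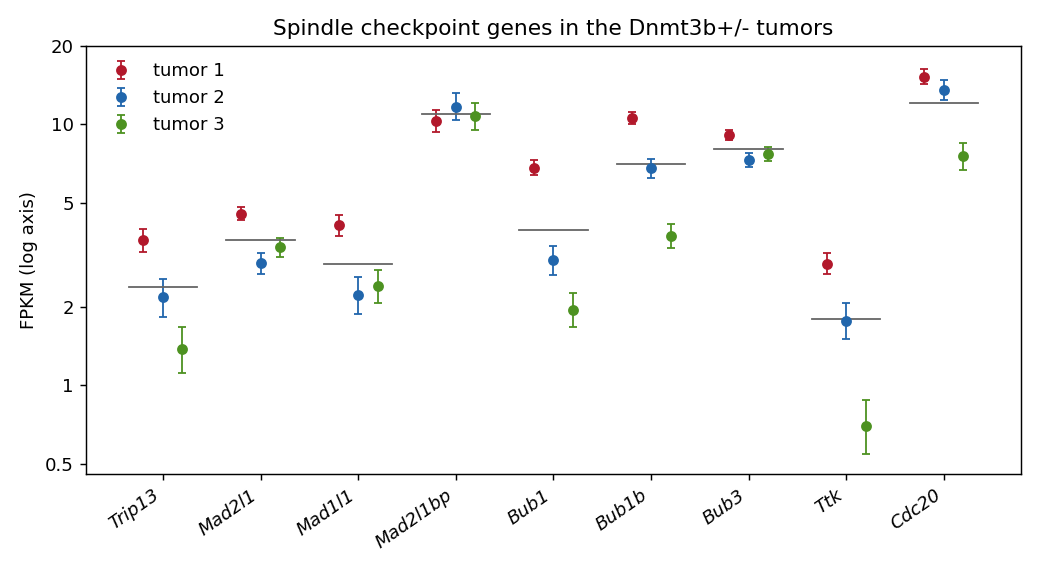
FPKM of the 9 genes (log axis) in each tumor, with points for the tumors, exact Poisson 95% intervals of the recovered reads as error bars and gray lines at the mean of the 3 tumors. Tumor 1 is highest for all genes but Mad2l1bp, and the spread between tumors ranges from that of Mad2l1bp, between 10.3 and 11.7 FPKM, to that of Ttk, between 0.695 and 2.92 FPKM.

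The plot of FPKM by gene and tumor shows the order of the levels per length. By mean FPKM it was Cdc20, Mad2l1bp, Bub3, Bub1b, Bub1, Mad2l1, Mad1l1, Trip13 and Ttk, and the mean of Cdc20 was 6.75 times that of Ttk. Of the 8 pairs of neighbors in this order, 7 had ranges over the tumors that overlapped, and those genes were not separated by their spread. The ranges of Mad2l1bp and Bub3 did not overlap. Within each tumor, 5 of the 8 pairs kept their order, namely Mad2l1bp over Bub3, Bub1b over Bub1, Mad2l1 over Mad1l1, Mad1l1 over Trip13 and Trip13 over Ttk. All 9 genes had a mean of at least 1 FPKM and were above 0.2 FPKM in every tumor.

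Of the 9 genes, 8 were highest in tumor 1, as were 50.6% of the 11190 genes with a mean of at least 1 FPKM, and Mad2l1bp was highest in tumor 2. At least 2-fold higher in tumor 1 than in tumor 3 were 5 of the 9, Trip13, Bub1, Bub1b, Ttk and Cdc20, against 13.3% of all genes. No member was at least 2-fold higher in tumor 3 than in tumor 1, where 4.45% of all genes were. Between tumors 1 and 2, Bub1 alone was at least 2-fold higher in tumor 1, against 15.1% of all genes, and between tumors 2 and 3, Ttk alone was at least 2-fold higher in tumor 2, against 11.3%. The count of 5 thus needs both the high tumor 1 and the low tumor 3, and Cdc20, at a ratio of 2.02, lay just inside the 2-fold limit. With median-of-ratios factors in place of the deposited scale the ratio of Cdc20 was 1.77 and the count was 4, against 10.2% of all genes. With each tumor rescaled to the mean of the FPKM sums the count was 6, with Mad1l1 at 2.03, against 19.7% of all genes. The median log2(FPKM + 0.1) difference of the 9 genes was 1.00 between tumors 1 and 3, 0.63 between tumors 1 and 2 and 0.61 between tumors 2 and 3, where the medians of all genes were 0.23, 0.17 and 0.06. Relative to the median of all genes, the log2 difference between tumors 1 and 3 was 1.09 for Trip13, 1.53 for Bub1, 1.25 for Bub1b, 1.69 for Ttk and 0.77 for Cdc20. It was 0.18 for Mad2l1 and 0.52 for Mad1l1, that of Bub3 equaled the median of all genes to within 0.01, and that of Mad2l1bp was -0.29.

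**Figure D2:**
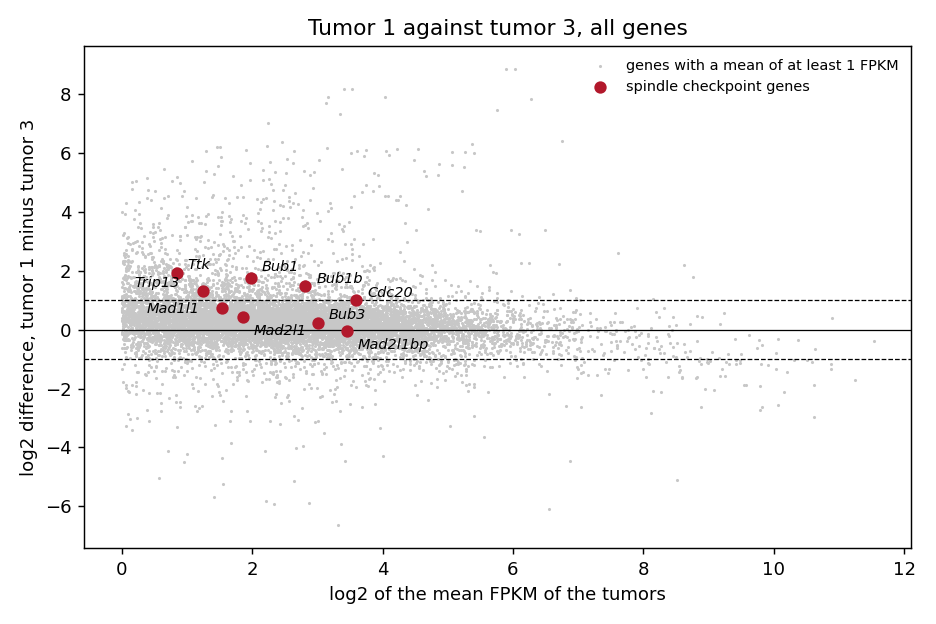
The log2(FPKM + 0.1) difference between tumors 1 and 3 against log2 of the mean FPKM, with gray points for the 11190 genes with a mean of at least 1 FPKM, red points for the checkpoint genes and dashed lines at a 2-fold difference. Trip13, Ttk, Bub1 and Bub1b lie above the upper line and Cdc20 lies on it, while Mad2l1, Mad1l1, Bub3 and Mad2l1bp lie between the lines.

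Ratios of partners show how the members stood to each other within a tumor. On the FPKM scale, Trip13 was 0.348, 0.185 and 0.128 times its adaptor Mad2l1bp in tumors 1, 2 and 3, a range of 2.72-fold. Relative to its substrate Mad2l1, Trip13 had ratios of 0.792, 0.740 and 0.406, so that tumor 3 was low against the other tumors. The ratio of Mad2l1 to Mad1l1 was nearly level, at 1.10, 1.33 and 1.41. Bub1 and Bub1b stood highest against Bub3 in tumor 1. The ratios were 0.752, 0.411 and 0.252 for Bub1 to Bub3, and 1.17, 0.927 and 0.484 for Bub1b to Bub3. Cdc20, the target of the checkpoint, had 3.35, 4.63 and 2.23 times the FPKM of Mad2l1, with tumor 2 the highest. The ratio of Ttk to Bub1 was 0.428, 0.587 and 0.357, and that of Mad2l1 to Mad2l1bp was 0.439, 0.2505 and 0.315. These ratios do not depend on the scale of the libraries.

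Genes that work with the checkpoint were set beside the members. Over all genes, as above, 50.6% were highest in tumor 1, 13.3% were at least 2-fold higher in tumor 1 than in tumor 3, and the median log2 difference between tumors 1 and 3 was 0.23. Of 18 kinetochore genes, 17 were highest in tumor 1 and 15 were at least 2-fold higher in tumor 1 than in tumor 3, with a median log2 difference of 1.44. Spdl1, which recruits dynein to kinetochores, had 5.98, 1.83 and 1.24 FPKM in tumors 1, 2 and 3, and the kinetochore motor gene Cenpe had 6.17, 3.19 and 1.37 FPKM, while Mis12 and Zw10 had the highest means, 8.36 ± 2.49 and 7.53 ± 2.04 FPKM (SD, n = 3 each). Of 9 genes of attachment error correction, 8 were at least 2-fold higher in tumor 1 than in tumor 3, with a median log2 difference of 1.46. In this list Sgo1, a protector of centromere cohesion, had 7.69, 2.38 and 1.29 FPKM, Birc5, a subunit of the Aurora B complex, had 21.5, 5.67 and 4.01 FPKM, and Incenp, its scaffold, had 21.7, 23.4 and 10.3 FPKM. The exception was the histone kinase gene Haspin, with 6.64, 6.08 and 6.63 FPKM.

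Downstream of the checkpoint, none of the 14 APC/C subunit genes was at least 2-fold higher in tumor 1 than in tumor 3, where 13.3% of all genes were. Of the 14, 12 were highest in tumor 1, against 50.6% of all genes. Their median log2 difference was 0.39, near the 0.23 of all genes. With the rescaled sums, 2 of the 14 were at 2-fold, as were 19.7% of all genes. Anapc5 and Anapc2 had the highest means, 26.4 ± 8.20 and 12.5 ± 2.09 FPKM (SD, n = 3 each), Cdc27 had the largest ratio of highest to lowest tumor with 10.02, 4.47 and 5.90 FPKM, and Anapc7 the smallest with 4.86, 5.27 and 4.69 FPKM. Of 9 partners and substrates of the APC/C, 6 were at least 2-fold higher in tumor 1 than in tumor 3, with a median log2 difference of 1.24. The substrate genes Ccnb1 and Ccnb2 had 7.81, 2.81 and 1.76 FPKM and 20.6, 14.2 and 8.68 FPKM, separase (Espl1) had 5.43, 5.69 and 1.66 FPKM, and the ubiquitin-conjugating enzyme gene Ube2s had 11.6, 16.2 and 11.5 FPKM. In a list of 10 housekeeping genes, none was at least 2-fold higher in tumor 1 than in tumor 3, and the median log2 difference was -0.10, where that of all genes was 0.23. With the rescaled sums these values were 0.15 and 0.48, so the housekeeping genes stayed below all genes.

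**Figure D3:**
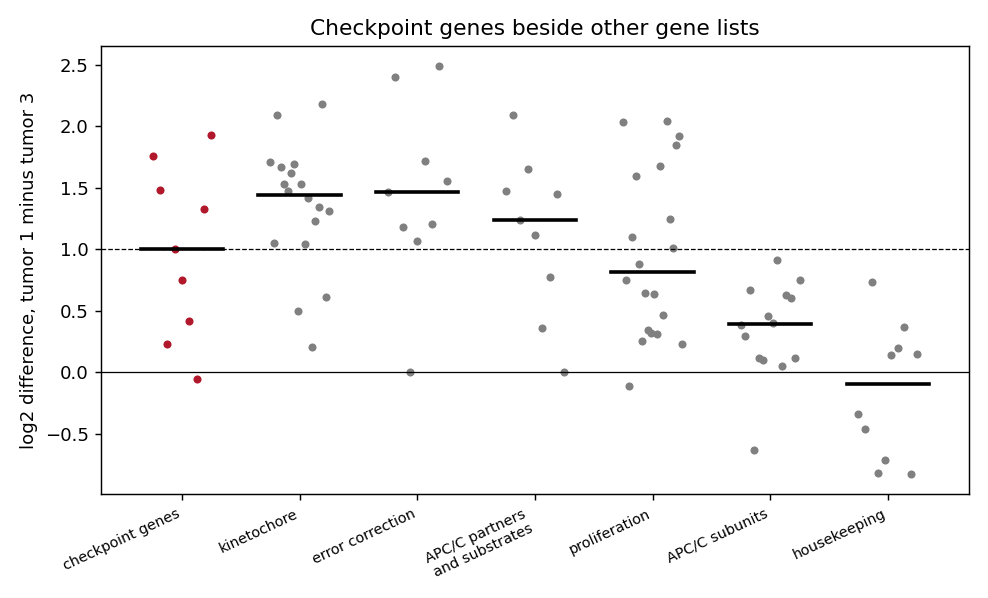
The log2(FPKM + 0.1) difference between tumors 1 and 3 for each gene with a mean of at least 1 FPKM in 7 lists, with black lines at the medians, a dashed line at 2-fold and the checkpoint genes in red. The medians were 1.00 for the checkpoint genes, 1.44 for kinetochore genes, 1.46 for error correction, 1.24 for APC/C partners and substrates, 0.82 for proliferation genes, 0.39 for APC/C subunits and -0.10 for housekeeping genes. Of the proliferation genes, Anln passed the limit of 1 FPKM only through tumor 1.

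Several checkpoint genes are transcribed mainly in dividing cells. The members were therefore also divided by the geometric mean FPKM of 20 proliferation genes, which came to 17.3, 11.5 and 8.78 in tumors 1, 2 and 3. Relative to this list Trip13 was at 0.208, 0.188 and 0.156, with a mean of 0.184 ± 0.0260 (SD, n = 3). Its highest tumor was then 1.33 times its lowest, against 2.62 times for the FPKM alone. Members that were level in FPKM stood lowest against the list in tumor 1, as level genes must where the list is highest. Mad2l1bp was at 0.597, 1.02 and 1.22 and Bub3 at 0.525, 0.636 and 0.879. In the list, Mki67 had 38.7, 30.4 and 12.04 FPKM and Top2a 42.8, 17.3 and 11.8 FPKM. Anln, with 2.51, 1.09 and 0.537 FPKM, had a mean of at least 1 FPKM only through tumor 1. Pcna, the clamp of DNA replication, had 88.0, 55.9 and 63.6 FPKM, and Tyms, which makes thymidylate, had the smallest ratio of highest to lowest tumor with 6.02, 5.34 and 5.13 FPKM.

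After these values were seen, the list was divided into 12 genes of DNA replication and nucleotide supply and 8 genes of mitosis and cytokinesis. The geometric mean of the replication genes was 1.46 times as high in tumor 1 as in tumor 3, and that of the mitosis genes 3.11 times. Relative to the mitosis genes, Trip13 was at 0.336, 0.392 and 0.3995 in tumors 1, 2 and 3, Bub1 at 0.638, 0.545 and 0.566, and Bub1b at 0.991, 1.23 and 1.09, so that each of these 3 varied by at most 1.24-fold, while Ttk varied by 1.58-fold and Cdc20 by 1.72-fold. Relative to the replication genes, the highest tumor was 1.80 times the lowest for Trip13, 2.41 times for Bub1, 1.95 times for Bub1b, 2.89 times for Ttk and 1.57 times for Cdc20. Cdc20 thus varied slightly less against the replication genes than against the mitosis genes, unlike the other 4 genes at 2-fold between tumors 1 and 3. Mad2l1 and Bub3 varied less against the replication genes, by 1.32-fold and 1.24-fold, than against the mitosis genes, by 2.32-fold and 2.64-fold.

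**Figure D4:**
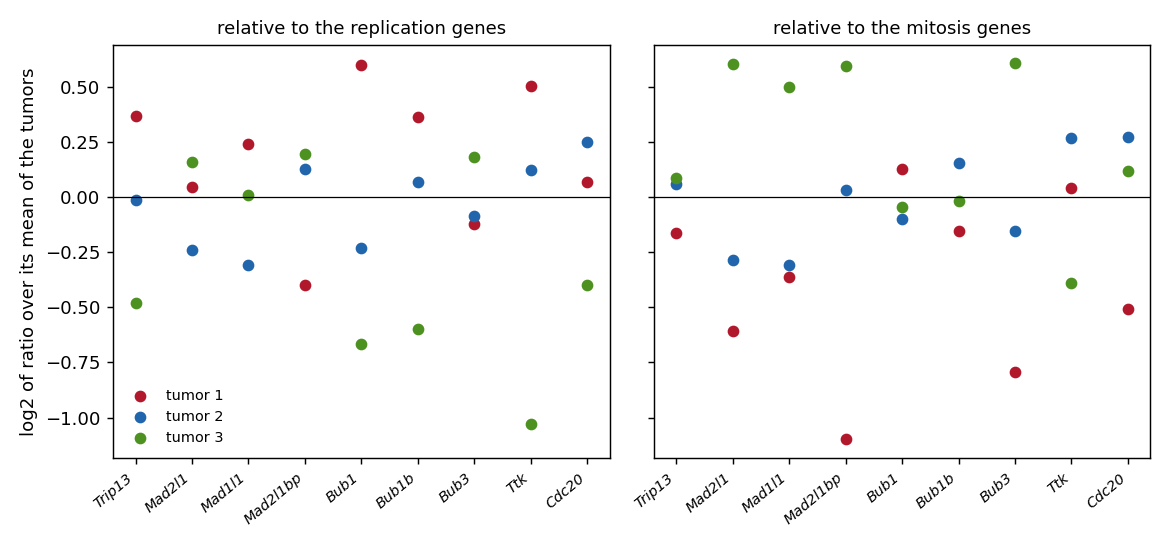
FPKM of each member divided by the geometric mean of 12 replication genes (left) or of 8 mitosis genes (right) in the same tumor, as log2 of this ratio over its mean of the 3 tumors. The tumors lie closer together on the right for Trip13, Bub1, Bub1b and Ttk, and on the left for Mad2l1, Mad1l1, Bub3, Mad2l1bp and, by a small margin, Cdc20 (1.57-fold against 1.72-fold).

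The genes most like Trip13 over the 3 tumors were found by the Euclidean distance between log2(FPKM + 0.1) deviations from each gene's own mean, over 11189 genes with a mean of at least 1 FPKM. The 5 nearest were 2900076A07Rik, Coro2a, Slc9a5, Clspn and Gbp4, at distances of 0.0194 to 0.0468. Clspn, which encodes the replication checkpoint adaptor claspin, had 7.85, 4.64 and 2.93 FPKM, and Coro2a had 18.3, 11.3 and 7.36 FPKM. The APC/C substrate gene Ccnb2, at rank 31, was nearer to Trip13 than any member. Of the members, Bub1b was nearest to Trip13 at rank 73, followed by Bub1 at rank 415, Cdc20 at rank 477 and Ttk at rank 865. Mad1l1 had rank 1181, Mad2l1 rank 2609, Bub3 rank 3528 and Mad2l1bp rank 6201. With only 3 tumors many genes share a pattern, and with a pseudocount of 1 only 1 of the 5 genes stayed among the nearest and Bub1b had rank 503.

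By position, 2 of the 9 genes have a divergent partner, a gene that starts within 1000 bases on the other strand and is transcribed away from the member, as have 15.5% of the genes with a mean of at least 1 FPKM. Brd9, a bromodomain gene of a chromatin remodeling complex, starts 27 bases from Trip13 and had 8.20, 8.79 and 6.63 FPKM in tumors 1, 2 and 3. Trip13 was at 0.439, 0.247 and 0.207 times Brd9, so the genes of this pair did not keep a fixed ratio over the tumors. Nudt1, which encodes an enzyme that removes oxidized nucleotides, starts 104 bases from Mad1l1 and had 3.89, 4.08 and 3.14 FPKM. Mad1l1 was at 1.06, 0.542 and 0.765 times Nudt1.

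All 9 genes have at least 1 promoter window of 300 bases in RefSeq, from 250 before to 50 after the start, and 2 of them, Mad1l1 and Bub3, have 2 windows. The CHR was searched as TTTGAA or TTCGAA on both strands and is held by 19.2% of the 32851 promoter windows, or by at least 1 window of 21.7% of the 27025 genes. It is in the windows of 6 of the 9 genes, Trip13, Bub1, Bub1b, Bub3, Ttk and Cdc20. The 5 members that were at least 2-fold higher in tumor 1 than in tumor 3 are among them, though Cdc20 was at 1.77 with median-of-ratios factors. Of 8106 genes with a window and a mean of at least 1 FPKM, 970 were at 2-fold in this comparison, and CHR letters were in windows of 22.2% of these and 15.9% of the others. CCAAT, the letters bound by NF-Y, was found on either strand in 37.4% of all windows, or 41.1% of genes, and in the windows of 5 members, Bub1, Bub1b, Bub3, Ttk and Cdc20. In the first window of Bub3 and in that of Cdc20, CHR letters lie between a pair of CCAAT matches, at 43 bases and 18 bases before the RefSeq start. In the second window of Bub3 the same letters lie 167 bases before the start. They lie inside the span given for Bub3 above, which begins before both of its RefSeq starts. No window of a member held the E2F letters TTTCCCGC, TTTCGCGC, TTTGCCGC or TTTGGCGC, which 2.26% of all windows and 2.60% of genes hold. These matches are descriptions of the letters only, and binding at them was not tested.

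**Figure D5:**
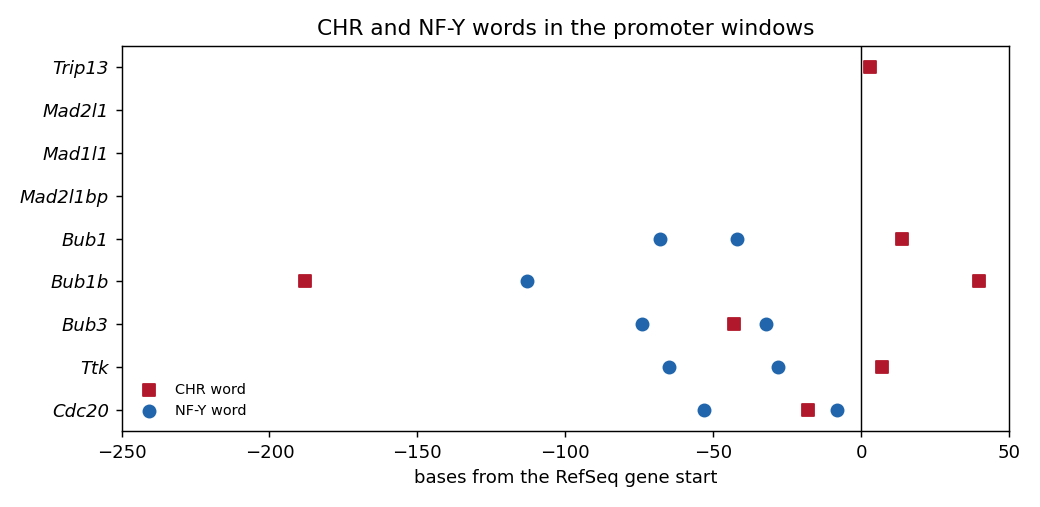
Distance in bases from the RefSeq start to the first base of each CHR word (red squares) and each NF-Y word (blue circles) in the promoter windows of the 9 genes, with the first of 2 windows for Bub3. Trip13 has a CHR word and no NF-Y word, and Mad2l1, Mad1l1 and Mad2l1bp have neither.

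TRIP13 also acts on HORMA-domain proteins of meiotic chromosomes. Of 7 genes of HORMA-domain proteins, 5 had a mean of at least 1 FPKM, where 32.7% of all 34197 genes did, and they are Mad2l1, Mad2l2, Mad2l1bp, Atg13 and Atg101. Of 9 genes of the meiotic chromosome axis and recombination, 2 had a mean of at least 1 FPKM. These were Sycp1, with 3.01, 0.697 and 1.10 FPKM from 329, 47 and 81 reads, and Spo11, with 2.01, 1.44 and 0.405 FPKM from 242, 107 and 33 reads. Without tumor 1 their means were 0.897 and 0.922 FPKM, so both passed this limit only through tumor 1. The meiotic substrates of TRIP13 were near the limit of detection, with at most 1 read per tumor for Hormad1 and at most 6 reads for Hormad2.

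Marker genes of the cells that a lymph node tumor can hold were read beside these results. All 11 T-cell genes had a mean of at least 1 FPKM, and they summed to 1492, 1265 and 1579 FPKM in tumors 1, 2 and 3, with Cd8b1 the most abundant at 434.7, 166.0 and 443.4 FPKM. Without Cd8b1 the sums were 1057, 1099 and 1136 FPKM, only 1 of the 11 genes had the highest and lowest tumor of the full sum, and 6 of the 11 were highest in tumor 2, as were 33.7% of all genes. At least 2-fold higher in tumor 1 than in tumor 3 was 1 of the 11, Cd4, with 28.4, 4.28 and 8.22 FPKM. The sums of 10 myeloid genes were 301.9, 91.9 and 48.1 FPKM, with 8 of the 10 at a mean of at least 1 FPKM, Lyz2 the most abundant and Elane without a read in any tumor. Those of 9 erythroid genes were 202.7, 38.6 and 4.82 FPKM, with 5 of the 9 at a mean of at least 1 FPKM and Hba-a1 the most abundant. Both sums were highest in tumor 1 and lowest in tumor 3, as were Trip13, Bub1, Bub1b, Ttk and Cdc20. Without Cd68 the myeloid sums were 282.3, 40.6 and 38.8 FPKM, so their difference between tumors 2 and 3 rested largely on Cd68. Of the 8 myeloid genes at 1 FPKM, 2 were at 2-fold in tumor 2 over tumor 3 (11.3% of all genes). Another 2 were at 2-fold in tumor 3 over tumor 2 (5.11%). Without Hba-a1 the erythroid sums kept their order, at 110.4, 18.95 and 2.92 FPKM. The share of all genes that were highest in tumor 1 and lowest in tumor 3 was not worked out, so the shared order cannot be weighed. All 5 erythroid genes and all 8 myeloid genes with a mean of at least 1 FPKM were at least 2-fold higher in tumor 1 than in tumor 3, against 13.3% of all genes. Of these, Alas2 and 3 myeloid genes passed the limit of 1 FPKM only through tumor 1, and the other 4 and 5 genes compare with 10.6% of the 10708 genes that passed it without tumor 1. All 5 erythroid genes and 7 of the 8 myeloid genes were highest in tumor 1, against 50.6% of all genes. Of these, all 5 erythroid genes and 4 of the 8 myeloid genes were also lowest in tumor 3. No share of all genes was worked out for these counts, so they cannot be weighed either. Lyz2 gave 215.2 FPKM of the myeloid sum in tumor 1, Cd68 was highest in tumor 2 with 51.2 FPKM, and S100a8 was lowest there with 13.2, 0.228 and 4.30 FPKM in tumors 1, 2 and 3. The sums of 10 B-cell genes were 66.8, 52.8 and 125.9 FPKM, with 9 of the 10 at a mean of at least 1 FPKM and Cd79a the most abundant. Cd22 gave 36.5 FPKM of the sum in tumor 2, and without it the sums were 61.0, 16.3 and 112.0 FPKM, while 7 of the 9 genes were at least 2-fold higher in tumor 1 than in tumor 2 (15.1% of all genes) and 7 were so in tumor 3 over tumor 2 (5.11%). Between tumors 1 and 3, where 5 checkpoint genes were at 2-fold in tumor 1, none of the 9 marker genes was so and 3 were at 2-fold in tumor 3 (4.45%). The sums of 8 stromal and endothelial genes were 19.5, 52.6 and 5.45 FPKM, with Pecam1 the most abundant. A mean of at least 1 FPKM was reached by 4 of the 8, and all 4 were at 2-fold in tumor 1 over tumor 3 (13.3% of all genes). Of the 4, 3 were highest in tumor 2 and passed the limit of 1 FPKM only through it. These 3 were also at 2-fold in tumor 2 over tumor 1 (10.1% of all genes). The sums of 11 pancreatic acinar genes were 94.4, 471.3 and 0.732 FPKM, with Ctrb1 the most abundant and Ptf1a without a read in any tumor. A mean of at least 1 FPKM was reached by 10 of the 11. All 10 were at 2-fold in tumor 1 over tumor 3, and all 10 were also at 2-fold in tumor 2 over tumor 1. The part of these cells in the differences of the checkpoint genes between tumors was not tested.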

How the data were processed

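RNA-seq values of 3 Dnmt3b+/- PTCL were used. Per the labels, libraries were sequenced as paired ends of 150 bases. The authors aligned reads to mm10 with STAR, quantified genes in SeqMonk above a minimum mapping quality, and deposited FPKM on a linear scale. The submitters' notes also name DESeq2, which the authors used for comparisons not analysed here. The 3 bisulfite samples were not analysed here.

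From the FPKM, depth was taken from the value of 0.9 read that genes without a read hold, and reads per gene were recovered with GENCODE M21 exon lengths. In all 3 tumors at once, 92.8% of genes with a length gave reads within 0.05 of a whole number. Depths were 30726570, 18969988 and 20770928 reads. Ratios between tumors carry exact conditional 95% intervals on reads. Log2 differences used a pseudocount of 0.1, and all-gene shares used genes with a mean of at least 1 FPKM. Where a symbol recurred, the row with the highest mean was kept. Promoters are from RefSeq, GRCm38.p6. The members and lists were chosen with earlier results of these data known.

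Named genes are the 9 members, the 2 genes of each pathway list with the highest mean, the 2 with the largest and the 1 with the smallest ratio of highest to lowest tumor, Mki67, Top2a, the 5 genes nearest Trip13, divergent partners, and the most abundant and unread genes of each cell type list. Not every gene that the rule names has its values printed, and Elovl1, Fgfr2, Cd4, Cd22, Cd68, S100a8, Alas2, Mad2l2, Atg13, Hormad1 and Hormad2 were named outside it, after their values were seen. The shares of promoter letters by fold, of divergent partners and of genes that pass the filter without tumor 1 were added after the values were seen. Steps were tested on simulated data. Alternatives were other scalings, folds, filters, pseudocounts and list summaries, and each tumor left out. Calculations used NumPy 2.4.6 and pandas 2.3.3 in Python 3.11, intervals SciPy 1.17.1, and plots matplotlib 3.10.9.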

Additional observations from a re-analysis of the deposited data

How the results depend on the processing

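Of 224 alternatives run over 48 values, 51 moved the value and 3 turned its sign. Some could not count as moved by construction. These are the 54 with 1 tumor left out, the scalings of ratios within a tumor, and sums of repeated symbols for members. Means and ratios counted as moved beyond their SD over the tumors, counts, shares and ranks beyond 1.5 times, and medians between tumors, which have no replicates, by 0.1 or more on the log2 scale, a limit set after the values were seen. The number of members highest in each tumor was the same under both other scalings. The share of all genes highest in each tumor was not worked out under them, so the unchanged number has no background. With 1 tumor left out, mean FPKM ranged from 1.77 to 2.89 for Trip13 and from 2.48 to 4.92 for Bub1, which without tumor 1 moved by 1.58 times. With 3 tumors, leaving out 1 cannot move a mean by its SD, so the SD says nothing of stability here.

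With FPKM rescaled to the mean of the sums, 2 members were at least 2-fold higher in tumor 1 than in tumor 2 (19.5% of all genes), 2 APC/C subunit genes and 1 housekeeping gene were at least 2-fold higher in tumor 1 than in tumor 3 (19.7%), and the median log2 difference between tumors 1 and 3 turned to 0.15 for HORMA-domain genes, from -0.09, and to 0.15 for housekeeping genes. The median log2 differences of the members rose with this scaling to 0.77 (tumors 1 and 2), 1.25 (tumors 1 and 3) and 0.71 (tumors 2 and 3), and with median-of-ratios factors were 0.48 and 0.81 for the first pairs. With a pseudocount of 1 they were 0.50 (tumors 1 and 2) and 0.42 (tumors 2 and 3). Between tumors 1 and 3, rescaled sums and median-of-ratios factors gave medians of 1.68 and 1.26 for kinetochore, 1.71 and 1.28 for error correction, 0.63 and 0.21 for APC/C subunit, 1.48 and 1.05 for APC/C partner, 1.05 and 0.63 for proliferation and 1.94 and 1.54 for meiotic genes. Median-of-ratios factors gave -0.28 for HORMA-domain and -0.29 for housekeeping genes, and a pseudocount of 1 gave 1.06 for kinetochore, 1.09 for error correction and 0.66 for proliferation genes. These scalings move the median of all genes too, between tumors 1 and 3 from 0.23 to 0.48 and 0.046. With the rescaled sums the lowest tumor of Bub3 and of Mad2l1bp was tumor 3. At 1.5-fold, 6 members were higher in tumor 1 than in tumor 2 (30.4% of all genes), 5 in tumor 2 than in tumor 3 (20.7%), and the share of all genes between tumors 1 and 3 was 26.9%. At 3-fold the counts were 0 (5.996%), 0 (6.23%) and, between tumors 1 and 3, 2 (7.02%). At 2-fold, the share of all genes between tumors 1 and 3 was 20.2% for genes with a mean of at least 0.2 FPKM and 7.75% at 5 FPKM, against 13.3%. Tumor 2 against tumor 3, chosen after seeing the data to leave out tumor 1, gave 1 member at 2-fold in place of 5, as did tumor 1 against tumor 2.

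For meiotic genes the median difference of 1.72, from 2 genes that passed the filter only through tumor 1, was 1.02 with a pseudocount of 1, 1.87 with 0.01 and -0.035 without a filter, which adds 7 genes with few reads. The filter thus favored a positive value, and 1.72 says nothing of the list. Trip13 relative to the proliferation list was 0.145 with the list's median, and 0.117 with the replication genes and 0.376 with the mitosis genes, both chosen after seeing the data. Of the 5 genes nearest Trip13, 1 stayed with a pseudocount of 1, 2 at 0.2 FPKM and 3 at 5 FPKM, and Bub1b had rank 503 with a pseudocount of 1 and rank 25 at 5 FPKM. The causes were not tested. No paired analysis was possible because a single RNA-seq group was measured. Depth limits Ttk most, with 71 reads in tumor 3, and each ratio between tumors compares single libraries.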
